A study of Mus musculus with 14 samples.

Results

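Interferon response genes were followed in mouse macrophages exposed to the cytokine IL4, either in a dish or in the marrow of leukemic mice. A list of 51 interferon-stimulated genes was used, and 47 of them were among the 9474 genes of the deposited tables. The other 4, Mx1, Mx2, Isg20 and Ifi44, were not analysed here. The study behind the data concerned IL4 and the uptake of acute myeloid leukemia (AML) cells by macrophages. All mice were C57BL/6J, without a stated age. For the culture groups, monocytes purified from marrow were kept 7 days in CSF1, which drives macrophage differentiation, either alone or with 20 ng/mL murine IL4 (4 libraries each). The CSF1 dose is 25 ng/mL in one label and 20 ng/mL in another. For the marrow groups, cells positive for the macrophage surface protein F4/80 were sorted 12 days after transplantation of AML cells carrying an IL4 cDNA or an empty vector (3 libraries each). The design text calls the control leukemia wild type, and both marrow groups therefore came from leukemic mice. The labels do not say whether libraries of a group came from separate cultures or animals, so p-values measure the spread between these libraries, which may be technical.

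Type I interferons bind the receptor IFNAR1-IFNAR2, whose kinases JAK1 and TYK2 phosphorylate STAT factors. STAT2 acts with IRF9 in the complex ISGF3, which binds interferon-stimulated response elements in promoters and switches on genes for RNA sensors, RNA-degrading enzymes, entry inhibitors, ubiquitin-like modifiers and GTPases. Macrophages keep part of this programme on without infection, and IL4 acts through another factor, STAT6. No value for an interferon gene was available, since 0 of 20 listed interferon genes were among the rows.

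The deposited values are log2 values from which whole read counts could be recovered for 9450 of the 9474 genes, including all 47 interferon response genes. Recovered reads summed to 529814 to 850713 per library, and the interferon response genes together took 1225 to 4141 reads, so single genes often rest on few reads. Levels below are recovered reads scaled to a common total (RPM, 1e+06 times the reads over the library's recovered reads), which are not corrected for transcript length and are compared only within a gene. Fold changes are differences of deposited log2 values with their standard error (SE), and a gene is said to have risen or fallen where limma gave a Benjamini-Hochberg adjusted p below 0.05 over all 9474 genes. Known IL4 targets separated the groups as labelled, with a summed level of 45800 to 55600 RPM with IL4 against 1140 to 2090 RPM in culture, and 32000 to 36500 RPM against 3790 to 4880 RPM in marrow. Such sums are set mostly by the highest genes. Of the 12 measured targets, 9 rose, 1 fell and 2 were not called in culture, and 10 rose and 2 were not called in marrow. Among all genes 7.96% rose in culture and 6.7% in marrow. Of 12 macrophage markers, the 10 with recovered reads summed to 12000 to 13300 RPM in culture controls, 7200 to 8160 RPM in culture with IL4, 2340 to 2560 RPM in marrow controls and 1990 to 2430 RPM in marrow with IL4. The 5 measured neutrophil markers (S100a8, S100a9, Ngp, Csf3r and Mmp9) summed to 60500 to 69500 RPM in marrow controls and 45100 to 55800 RPM in marrow with IL4, but to 107 to 212 RPM and 58.4 to 127 RPM in the culture groups. The marrow libraries thus held far more RNA of neutrophil genes than the culture libraries. In such bulk samples, fewer cells of a type and less RNA per cell cannot be told apart.

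Promoter windows were available from RefSeq for 39 of the 47 genes, on build GRCm38.p6, each reaching from 250 bases before to 50 bases after the annotated start. The entries not in the table were Dhx58, Zbp1, Oas2, Rtp4, Ifi27l2a, Usp18, Parp9 and Parp14. The core of the interferon-stimulated response element, searched as GAAA and GAAA with any 2 bases between them on either strand, occurred in 20 of the 39 genes (51.3%), against 1079 of 27025 genes with a window (3.99%) and 290 of 7322 measured genes (3.96%). A match is a description of letters and not a shown binding site. The stretches below come from genes that fell with IL4 in culture (Isg15, Ifit3 and Oas3), rose there (Gbp2) or were called in marrow alone (Gbp3 and Rsad2). They show the core that these genes share. With each library centred on its median, Gbp3 was called in culture and not in marrow. Capitals mark every base of a match, in either orientation, and each stretch is read 5′ to 3′ on the gene's own strand.
Isg15, chr4:156200819-156200978, minus strand: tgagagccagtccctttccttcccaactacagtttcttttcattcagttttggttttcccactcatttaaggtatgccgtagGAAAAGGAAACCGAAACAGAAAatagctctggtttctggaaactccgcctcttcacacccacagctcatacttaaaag
Ifit3, chr19:34583369-34583528, plus strand: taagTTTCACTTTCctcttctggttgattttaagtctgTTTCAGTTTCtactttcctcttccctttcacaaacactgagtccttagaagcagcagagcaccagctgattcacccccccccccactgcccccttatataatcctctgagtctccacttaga
Oas3, chr5:120777715-120777744, minus strand: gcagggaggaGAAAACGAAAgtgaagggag
Gbp2, chr3:142620594-142620623, plus strand: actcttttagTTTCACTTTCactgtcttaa
Gbp3, chr3:142559884-142560025, plus strand: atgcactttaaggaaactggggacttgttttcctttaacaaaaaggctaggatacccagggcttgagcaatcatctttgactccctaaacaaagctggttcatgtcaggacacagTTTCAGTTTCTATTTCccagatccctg
Rsad2, chr12:26456453-26456612, minus strand: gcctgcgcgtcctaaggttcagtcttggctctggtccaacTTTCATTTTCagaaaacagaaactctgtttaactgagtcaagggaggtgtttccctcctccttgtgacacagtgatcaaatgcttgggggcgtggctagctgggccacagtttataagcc

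Isg15 held 3 overlapping cores, Ifit3 held 2 separate cores, Gbp3 held 2 overlapping cores, and Oas3, Gbp2 and Rsad2 held 1 each. The core was therefore present both in genes that fell with IL4 in culture (Isg15, Ifit3, Oas3) and in Gbp2, which rose. The 20 genes with the core had a median log2 fold change of -1.50 in culture, with 16 falling and 1 rising, and the 19 genes without it had -1.04, with 15 falling. Over all genes in culture, 32.6% fell and 7.96% rose, with a median of -0.36. In marrow the medians were -0.41 with the core and -0.34 without, against -0.06 over all genes.

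**Figure D1:**
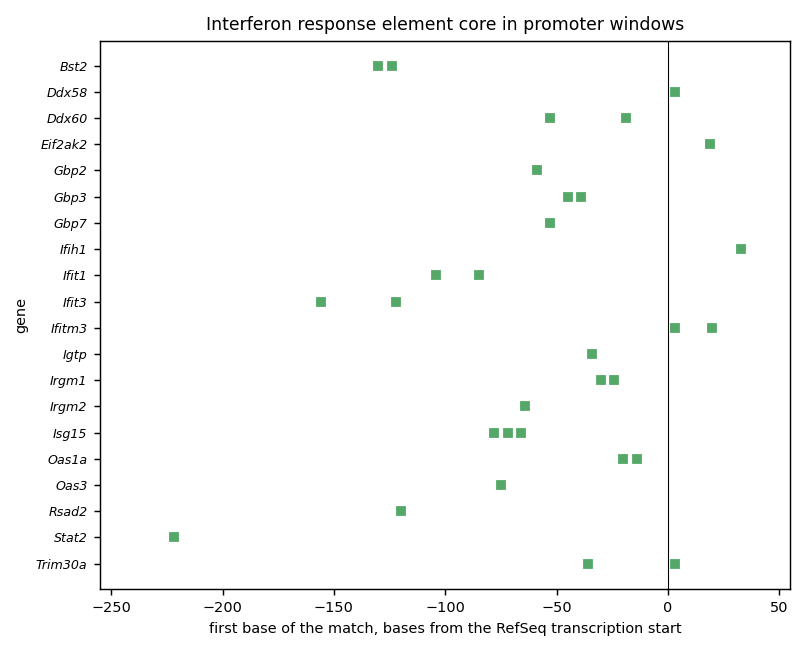
Position of each match to the core (GAAA, any 2 bases, GAAA, either strand) in the RefSeq promoter windows of the 20 interferon response genes that hold the motif. The horizontal axis is the distance in bases of the first base of the match from the annotated transcription start, the vertical line is the start, and each square is 1 match; most matches lie before the start, and Isg15 holds 3.

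In culture, IL4 was accompanied by lower levels of most interferon response genes: 37 of 47 fell, 2 rose (Gbp2 and Usp18) and 8 were not called. The median log2 fold change of the 47 genes was -1.20. Across all genes, 32.6% fell and 7.96% rose, with a median of -0.36. With each library centred on its median, 26 fell and 4 rose (Gbp2, Usp18, Gbp3 and Trim25) at a median of -0.84, against 12.7% lower and 14.4% higher among all genes. The lower calls lost were those of Dhx58, Adar, Znfx1, Ifit2, Ifi35, Isg15, Parp9, Parp12, Trafd1, Igtp and Tap1, and quantile normalization ended these calls and that of Irgm1. The IL4 and control libraries did not overlap for 34 genes lower with IL4 and 2 higher, against 30.2% and 7.49% of all genes. Summed over the 47 genes, the share of recovered reads was 0.487%, 0.415%, 0.389% and 0.329% in the culture controls, numbered from 1, against 0.218%, 0.198%, 0.188% and 0.193% for the IL4 libraries. The controls differed among themselves: control 1 was the highest of its group in 28 of 47 genes and control 4 the lowest in 23. Of the 11 measured macrophage markers, 9 also fell with IL4 in culture, Itgam rose (0.45 ± 0.14) and Cd68 was not called (0.22 ± 0.15), and their part in the result was not tested.

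In marrow, 9 of 47 genes fell with IL4-expressing leukemia (Ifit2, Rsad2, Cmpk2, Ifi27l2a, Sp100, Isg15, Trim30a, Parp14 and Gbp3) and 0 rose, by limma. At an unadjusted p below 0.05 limma gave 18 lower and 4 higher, and limma-voom on the recovered reads called 16 lower and 2 higher, Samd9l at 0.40 and Lgals3bp at 0.62. Among all genes 11.5% fell and 6.7% rose at the adjusted threshold of limma. No share of all genes is given for the unadjusted p or for limma-voom, so those counts have no background here. The median of the 47 genes was -0.40, against -0.06 over all genes. Centring each library left 5 lower (Ifit2, Rsad2, Cmpk2, Ifi27l2a and Trim30a) and 0 higher, against 8.92% and 9.45% of all genes. The IL4 and control libraries did not overlap for 19 genes lower with IL4 and 2 higher, against 22.1% and 15.5% of all genes. Rsad2, Ifi27l2a and Trim30a remained called whichever library was left out, and each of the other 6 lost its call in 4 or 5 of the 6 fits. The marrow count also depended on single libraries: the number that fell was 4, 5 and 3 without marrow controls 1, 2 and 3, and 5, 10 and 3 without marrow IL4 libraries 1, 2 and 3. The share of recovered reads taken by the 47 genes was 0.485%, 0.473% and 0.483% in marrow controls and 0.401%, 0.437% and 0.347% with IL4, so the groups did not overlap but lay close together. Markers of other cell types moved in the same comparison. Of the 5 measured monocyte markers, Ccr2, Fn1 and F13a1 fell (log2 fold changes of -3.92, -4.20 and -4.27), Vcan had -0.84 ± 0.44, and Chil3, which is also an IL4 target, rose by 2.95. The 2 measured erythroid markers (Car2 and Tfrc) fell, from a sum of 1450 to 1520 RPM in controls to 190 to 264 RPM, and the 2 measured B cell markers, Cd79b and Cd22, fell by 1.47 and 1.13. In culture both erythroid markers rose with IL4, from a sum of 62.7 to 169 RPM to 440 to 1230 RPM. Of the B cell markers, 1 rose (1.52) and 1 fell (-2.38) there. The erythroid markers went in opposite directions in culture and marrow, and the reason was not tested. Of the 5 neutrophil markers only Ngp fell (-0.89 ± 0.20), with the others between -0.37 and 0.44. Of the 11 macrophage markers, 4 rose (Mertk, C1qa, C1qb and C1qc) and 4 fell. Of the 5 measured progenitor and leukemic blast markers (Cd34, Myc, Sox4, Gata2 and Cd33), 2 rose and 1 fell. Their sum was 333 to 508 RPM in marrow controls and 538 to 858 RPM with IL4. The part of these cell types in the result was not tested.

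**Figure D2:**
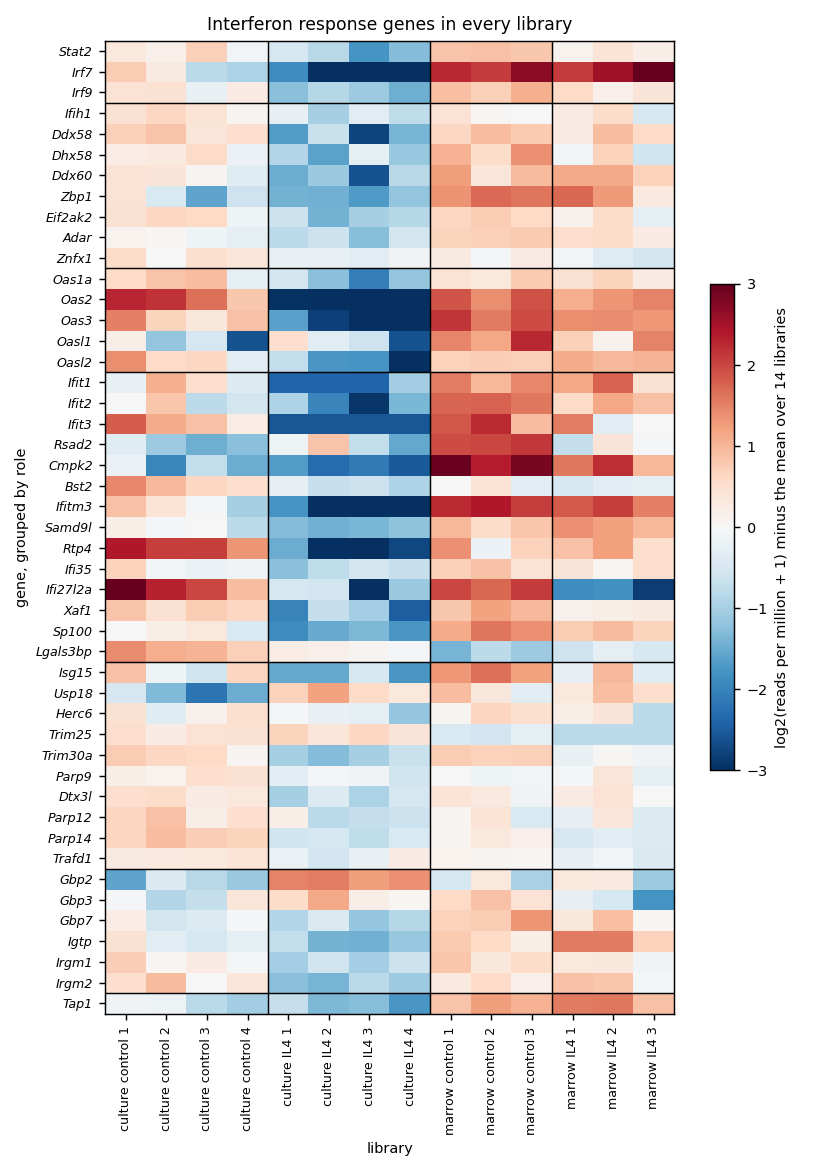
Level of the 47 interferon response genes (rows, grouped by role) in each of the 14 libraries (columns), as log2(RPM + 1) minus the gene's mean over the 14 libraries, with the colour scale ending at -3 and 3. Most rows are blue in the 4 culture IL4 libraries, whereas Gbp2 and Usp18 are red there, and Ifi27l2a is blue in both IL4 groups.

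The response itself was then compared between the experiments with an interaction term over all 14 libraries. The culture response was lower than the marrow response for 21 genes and higher for 4 (Rsad2, Usp18, Gbp2 and Gbp3), and 22 genes were not called. Among all genes 16.6% were lower and 6.45% higher, with a median difference of -0.30, against -0.87 for the 47 genes. After centring, 17 were lower and 5 higher, against 9.5% and 9.38% of all genes, with Irf9, Bst2, Trim30a and Parp14 lost and Trim25 gained. Of the 37 genes that fell in culture, 6 also fell in marrow (Ifit2, Ifi27l2a, Sp100, Isg15, Trim30a and Parp14), where 11.5% of all genes fell. The share of all genes that fell in both is not given, so this overlap is only a list. Culture and marrow differed in cell source, IL4 source, exposure time and RNA of neutrophil and other cell type markers at once, which cannot be told apart here.

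**Figure D3:**
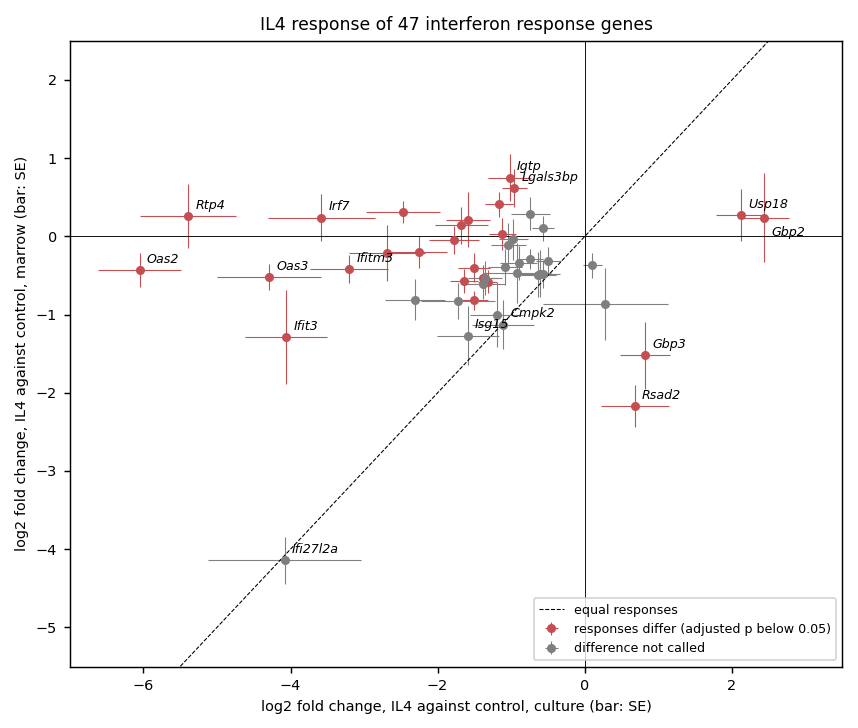
Log2 fold change of each of the 47 genes with IL4 in culture (horizontal axis) and in marrow (vertical axis), with SE bars; the dashed line marks equal responses, and red points are the 25 genes whose responses differed by limma. Oas2, Rtp4, Oas3, Ifit3 and Irf7 lie far to the left and above the dashed line, Ifi27l2a lies close to the dashed line, and Rsad2 and Gbp3 lie below 0 in marrow alone.

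The transcription factors of the pathway all fell in culture, and none of the 3 was called in marrow by limma, where Stat2 and Irf9 had an unadjusted p below 0.05 and were called lower by limma-voom. The shares of all genes that fell at the adjusted threshold of limma were 32.6% in culture and 11.5% in marrow. No such share is given for the unadjusted p or limma-voom. After centring all 3 were still called lower in culture, against 12.7% of all genes. Irf7, the factor that amplifies interferon production, stood at 36.4, 25.6, 11.6 and 10.5 RPM in the 4 culture controls and at 5.11, 1.27, 0 and 0 RPM with IL4. All 4 IL4 libraries lay below all controls, on 5 reads against 60, a ratio of 12.7 with a 95% counting interval of 5.16 to 40.6. In marrow, Irf7 was 105, 94.0 and 143 RPM in controls and 94.0, 128 and 192 RPM with IL4. These groups overlapped (log2 0.24 ± 0.30 SE, adjusted p = 0.635 by limma), and the response differed between the experiments by -3.82 ± 0.89 (adjusted p = 0.0071). Irf7 shares 45 annotated bases with Phrf1 on the opposite strand, and the library kit does not mark strand.

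Stat2, a subunit of ISGF3, measured 79.9, 71.5, 106 and 59.7 RPM in culture controls and 44.7, 35.6, 18 and 25.3 RPM with IL4. The groups were apart, with a log2 fold change of -1.38 ± 0.30 (adjusted p = 0.00526 by limma). In marrow, Stat2 was nearly constant in controls at 117, 118 and 113 RPM and lower in every IL4 library at 68.7, 84.9 and 73.6 RPM. Although these groups did not overlap, the change of -0.61 ± 0.19 was not called (adjusted p = 0.0552).

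Irf9, the DNA-binding subunit of ISGF3, measured 96.4, 98.8, 61.4 and 85.1 RPM in culture controls and 29.4, 39.4, 32.9 and 25.3 RPM with IL4, again without overlap (-1.39 ± 0.19, adjusted p = 0.000466). In marrow it was 134, 118 and 150 RPM in controls and 107, 79.3 and 93.5 RPM with IL4, lower in each IL4 library but not called (-0.53 ± 0.16, adjusted p = 0.053). The difference of the responses, -0.87 ± 0.27, was lost in 8 of the 14 fits that each left out a library. Irf9 overlaps Rnf31 by 123 bases on the same strand, so some reads may belong to either gene.

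Among the 8 sensors and RNA-binding regulators, 7 fell in culture and 0 were called in marrow by limma, with 3 lower at an unadjusted p below 0.05 (Dhx58, Eif2ak2 and Znfx1), which limma-voom called. The shares of all genes that fell at the adjusted threshold of limma were 32.6% in culture and 11.5% in marrow, with none given for the other criteria. After centring 4 fell in culture, against 12.7% of all genes. Ddx58, which encodes the cytosolic RNA sensor RIG-I, measured 77.6, 86.9, 61.4 and 67.2 RPM in culture controls and 14, 29.2, 5.99 and 17.4 RPM with IL4. The drop of -2.26 ± 0.38 (adjusted p = 0.0013 by limma) was not matched by a call in marrow, where controls were 73.4, 90.8 and 81.9 RPM and IL4 libraries 56.0, 90.6 and 71.1 RPM. The responses differed by -2.06 ± 0.51 (adjusted p = 0.00944). Ddx60, a helicase that assists RNA sensing, fell from 31.7, 30.7, 24.9 and 17.9 RPM to 7.66, 10.2, 2.99 and 12.6 RPM in culture. It overlapped between the marrow groups, at 57.5, 30.3 and 46.2 RPM in controls and 52.4, 52.8 and 38.7 RPM with IL4, and its responses differed by -1.82 ± 0.51 (adjusted p = 0.02), which was not called without marrow control 2 (-1.57, adjusted p = 0.056).

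Eif2ak2, which encodes the RNA-activated kinase PKR that halts translation, measured 99.9, 112, 111 and 65.7 RPM in culture controls and 46.0, 26.7, 35.9 and 39.5 RPM with IL4 (-1.36 ± 0.23, adjusted p = 0.00139). In marrow the IL4 libraries, at 79.5, 106 and 59.9 RPM, were all below the controls at 112, 124 and 110 RPM, yet the change of -0.53 ± 0.22 was not called. Ifih1, which encodes the long-RNA sensor MDA5, fell by 0.97 on the log2 scale in culture and overlapped in marrow. Dhx58, which encodes their regulator LGP2, had -1.20 ± 0.36 in culture and -1.0 ± 0.41 in marrow, called in culture alone, and the culture call was lost without control 2 (-1.18), control 3 (-1.09) or IL4 library 2 (-0.99). Adar, an editor of double-stranded RNA, and Znfx1, an RNA helicase, fell in culture by 0.74 and 0.57, and both calls were lost after centring.

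Of the 5 OAS genes, 4 fell in culture, and 0 were called in marrow by limma, with Oas3 and Oasl2 below an unadjusted p of 0.05 and Oas3 called by limma-voom. Among all genes 32.6% fell in culture and 11.5% in marrow at the adjusted threshold of limma, with no share given for the other criteria. After centring the same number, 4, fell in culture, against 12.7% of all genes. Oas2, whose enzyme makes the 2-5 oligoadenylates that activate RNase L, measured 135, 124, 86.4 and 47.8 RPM in culture controls and 2.55, 0, 1.5 and 0 RPM with IL4. That is 3 reads against 272, a ratio of 96.0 with a counting interval of 32.5 to 469. In marrow, Oas2 measured 101, 71.7 and 104 RPM in controls and 57.8, 67.9 and 77.3 RPM with IL4, and the groups overlapped (-0.43 ± 0.22). Its responses differed by -5.62 ± 0.71 (adjusted p = 9.15e-05 by limma). Its control levels differed by 0.03 ± 0.50 between marrow and culture.

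Oas3, a larger enzyme of the same kind, fell from 120, 66.4, 53.1 and 77.6 RPM to 12.8, 5.09, 0 and 3.16 RPM in culture (-4.29 ± 0.71, adjusted p = 0.00125). Every IL4 library was below every control. In marrow it went from 187, 124 and 165 RPM to 110, 113 and 104 RPM, also without overlap, but the change of -0.52 ± 0.17 was not called (adjusted p = 0.0689). Oasl2, an OAS-like protein with ubiquitin-like domains, fell from 143, 80.1, 83.0 and 43.3 RPM to 31.9, 15.3, 15 and 4.74 RPM in culture (-2.47 ± 0.50). In marrow it lay above the controls in every IL4 library without a call, at 117, 106 and 110 RPM against 87.8, 90.8 and 89.4 RPM (0.31 ± 0.14, adjusted p = 0.149). Oas1a fell by 1.78 in culture and had -0.05 ± 0.18 in marrow; it has near-identical copies, which makes its count uncertain. Oasl1 was sparse in culture, at 8 reads in controls and 11 with IL4, and was not called in either experiment.

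**Figure D4:**
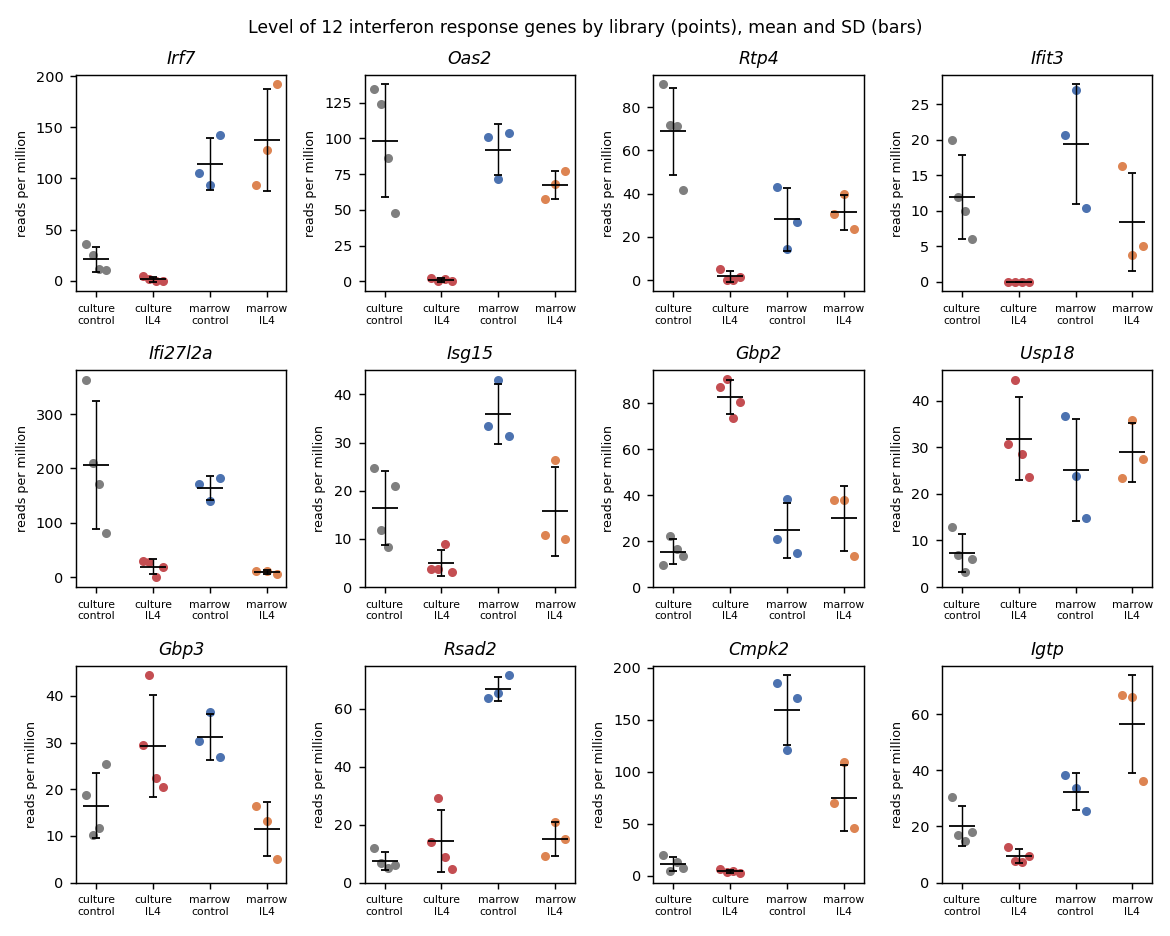
Level (RPM) of 12 interferon response genes in each library (points), with the group mean (long bar) and SD (error bar), for 4 libraries per culture group and 3 per marrow group. For Irf7, Oas2, Rtp4 and Ifit3 every culture IL4 library lies below the libraries of all other groups. Ifi27l2a is low in both IL4 groups, and Gbp2 and Usp18 are high in culture with IL4. Rsad2, Cmpk2 and Gbp3 are lower in marrow with IL4 than in marrow controls.

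Of the 14 measured antiviral effectors, 12 fell in culture and 5 in marrow, against 32.6% and 11.5% of all genes. After centring 10 fell in culture and 4 in marrow, against 12.7% and 8.92%. Rtp4, an interferon-induced transmembrane protein, measured 90.5, 71.5, 71.4 and 41.8 RPM in culture controls and 5.11, 0, 0 and 1.58 RPM with IL4. The 5 reads with IL4 against 190 gave a ratio of 40.3 with a counting interval of 16.9 to 125. In marrow, controls at 43.1, 14.3 and 26.8 RPM overlapped IL4 libraries at 30.7, 39.6 and 23.7 RPM, and the responses differed by -5.64 ± 0.89 (adjusted p = 0.000514 by limma). Rtp4 shares 525 bases with Masp1 on the opposite strand and 39791 annotated bases with the transcript Gm45338 on the same strand.

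Ifit3, a member of the family that binds foreign RNA, measured 20.0, 11.9, 9.96 and 5.97 RPM in culture controls, and 0 reads were recovered in all 4 IL4 libraries. Taking 3 reads over the group as the floor, it was at least 12.0-fold lower with IL4. In marrow it measured 20.7, 27.1 and 10.4 RPM in controls and 16.3, 3.77 and 4.99 RPM with IL4, with overlap and no call (-1.29 ± 0.60). The difference of its responses, -2.77 ± 0.77 (adjusted p = 0.0188), was not called without marrow control 3 (-2.39) or marrow IL4 library 1 (-2.19). Ifit3 has a near-identical neighbour, so its reads may be shared. Ifit1, which recognises RNA ends, had 1 read with IL4 against 15 in culture controls, a ratio of 15.9 with an interval of 2.44 to 669, and overlapped in marrow. Its response difference of -2.48 was not called with the replicate block (adjusted p = 0.0567 by limma), with quantile normalization (-2.03), or without marrow control 2 (-2.31) or marrow IL4 library 2 (-2.15).

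Ifi27l2a, a mitochondrial protein strongly induced by interferon, was low with IL4 in both experiments. In culture it measured 363, 211, 171 and 80.6 RPM in controls and 29.4, 28.0, 0 and 19 RPM with IL4. The drop of -4.08 ± 1.04 (adjusted p = 0.0114 by limma) owed part of its size to IL4 library 3, which held 0 reads, and was -2.81 without it. In marrow, controls at 171, 140 and 182 RPM stood far above IL4 libraries at 10.8, 11.3 and 4.99 RPM (-4.14 ± 0.30, adjusted p = 7.97e-05). The responses did not differ by the test (0.05 ± 1.37), with an SE too wide to show that they were equal.

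Rsad2, which encodes the antiviral enzyme viperin, fell in marrow and was not called in culture. In culture, controls measured 11.8, 6.81, 4.98 and 5.97 RPM and IL4 libraries 14, 29.2, 8.98 and 4.74 RPM, which overlapped (0.68 ± 0.46, adjusted p = 0.265). In marrow, controls were high and tight at 63.8, 65.3 and 71.5 RPM, while IL4 libraries stood at 9.04, 20.8 and 15 RPM. The marrow drop of -2.17 ± 0.27 (adjusted p = 0.000988) gave a response difference of 2.85 ± 0.64 (adjusted p = 0.00544). Its neighbour Cmpk2, a mitochondrial nucleotide kinase that starts in the opposite direction on chromosome 12, also fell in marrow, from 185, 121 and 171 RPM to 70.5, 109 and 46.1 RPM (-1.13 ± 0.31, adjusted p = 0.0333). In culture Cmpk2 was sparse, at 20.0, 5.11, 13.3 and 7.46 RPM in controls and 6.39, 3.81, 4.49 and 3.16 RPM with IL4, and was not called (-1.11 ± 0.42, adjusted p = 0.0594), though it was called without culture control 2 (-1.39).

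Ifitm3, a membrane protein that blocks virus entry, fell from 134, 95.4, 69.7 and 35.8 RPM to 20.4, 7.63, 5.99 and 3.16 RPM in culture (-3.20 ± 0.53, adjusted p = 0.00122). All IL4 libraries lay below all controls. In marrow it stood at 342, 382 and 305 RPM in controls and 260, 306 and 208 RPM with IL4, which overlapped by a narrow margin (-0.42 ± 0.18). Bst2, or tetherin, which holds budding virions, fell from 176, 126, 99.6 and 91.1 RPM to 53.6, 39.4, 40.4 and 33.2 RPM in culture. It was 63.8, 86.0 and 50.7 RPM in marrow controls and 45.2, 51.0 and 52.4 RPM with IL4, and was not called there. Its response difference of -1.12 ± 0.32 was not called without marrow control 3 (-0.94).

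Lgals3bp, a secreted galectin-binding glycoprotein, differed in its response between the experiments. It fell from 558, 441, 418 and 339 RPM to 241, 228, 219 and 199 RPM in culture (-0.96 ± 0.17, adjusted p = 0.00173). In marrow every IL4 library, at 134, 170 and 147 RPM, exceeded the controls at 78.2, 120 and 96.8 RPM, without reaching the threshold (0.62 ± 0.24, adjusted p = 0.104). The responses differed by -1.58 ± 0.27 (adjusted p = 0.000971). Samd9l, a cytosolic antiviral factor, likewise fell in culture (-1.16 ± 0.20) and had 0.41 ± 0.16 in marrow, with a difference of -1.57 ± 0.28.

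Among the remaining effectors, Sp100, a nuclear body protein, fell in both experiments, by 1.64 in culture and by 0.57 in marrow. Ifit2 also fell in both, by 1.72 and 0.83, although the culture call was lost without culture control 2 (-1.40) and after centring (-1.36). Xaf1, a pro-apoptotic factor, fell by 2.31 in culture and had -0.81 ± 0.26 in marrow (adjusted p = 0.0607). Ifi35, a regulator of interferon signalling, fell by 0.90 in culture and had -0.34 ± 0.22 in marrow. Its culture call was lost after centring (-0.54, adjusted p = 0.144 by limma), with quantile normalization (-0.48) and with the replicate block (adjusted p = 0.051).

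In the ISG15 system and the TRIM and PARP genes, 7 of 10 fell and 1 rose in culture, and 3 fell in marrow. The shares of all genes were 32.6% lower and 7.96% higher in culture and 11.5% lower in marrow. After centring 3 fell and 2 rose in culture and 1 fell in marrow, against 12.7%, 14.4% and 8.92% of all genes. Isg15, the ubiquitin-like modifier itself, measured 24.7, 11.9, 8.30 and 20.9 RPM in culture controls and 3.83, 3.81, 8.98 and 3.16 RPM with IL4. IL4 library 3 overlapped control 3, and the drop of -1.59 ± 0.42 was called (adjusted p = 0.0132 by limma). In marrow, controls at 33.5, 43.0 and 31.3 RPM exceeded IL4 libraries at 10.8, 26.4 and 9.98 RPM (-1.27 ± 0.38, adjusted p = 0.0479). Centring ended both calls, at -1.22 and -1.17.

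Usp18, the protease that removes ISG15 and also restrains IFNAR2 signalling, went the other way. Controls in culture measured 12.9, 6.81, 3.32 and 5.97 RPM and IL4 libraries 30.6, 44.5, 28.5 and 23.7 RPM, with every IL4 library higher (2.12 ± 0.34, adjusted p = 0.00109). In marrow, controls at 36.7, 23.9 and 14.9 RPM overlapped IL4 libraries at 23.5, 35.9 and 27.4 RPM (0.27 ± 0.33). The responses differed by 1.86 ± 0.52 (adjusted p = 0.0202), a call lost without marrow control 1 (1.54). Usp18 shares 15715 annotated bases with the noncoding gene Gm44148 on the opposite strand, which the library kit does not tell apart.

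Trim30a, a regulator of inflammatory signalling, fell from 183, 167, 163 and 115 RPM to 53.6, 43.2, 53.9 and 67.9 RPM in culture (-1.50 ± 0.18). It also fell in marrow, from 182, 174 and 179 RPM to 92.2, 111 and 99.8 RPM (-0.82 ± 0.12, adjusted p = 0.00204). Neither pair of groups overlapped. The difference of the responses, -0.68 ± 0.23 (adjusted p = 0.0487), was lost in 12 of the 14 fits without a single library, and the gene has close relatives that can share reads. Parp14, an ADP-ribosyltransferase with a known part in STAT6 signalling, fell from 266, 322, 281 and 269 RPM to 111, 116, 100 and 123 RPM in culture (-1.32 ± 0.13) and from 179, 212 and 188 RPM to 121, 136 and 127 RPM in marrow (-0.58 ± 0.15, adjusted p = 0.0281).

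Dtx3l, a ubiquitin ligase, fell from 120, 124, 101 and 106 RPM to 42.1, 63.6, 43.4 and 58.4 RPM in culture (-1.12 ± 0.18), and overlapped in marrow at 112, 104 and 79.0 RPM against 101, 115 and 83.6 RPM (0.03 ± 0.21). Its partner Parp9 fell by 0.57 in culture, a call lost after centring (-0.21). The genes share 682 bases on opposite strands, so their reads cannot be fully separated. Parp12 fell by 1.04 in culture, which was not called after centring (-0.68), and Trafd1, a negative regulator of innate signalling, by 0.50, the latter a call that 7 of the 8 fits without a library lost. Trim25, a ubiquitin ligase that activates RIG-I, measured 367, 298, 339 and 349 RPM in culture controls and 401, 323, 386 and 328 RPM with IL4 (0.10 ± 0.13), and 185, 170 and 210 RPM in marrow controls against 143, 145 and 146 RPM (-0.37 ± 0.16, adjusted p = 0.132). Herc6, the ligase that attaches ISG15 in mice, was not called in either experiment.

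Of the 6 interferon-induced GTPases, 3 fell and 1 rose in culture, and 1 fell in marrow. Among all genes 32.6% fell and 7.96% rose in culture, and 11.5% fell in marrow. After centring 2 fell and 2 rose in culture and 0 fell in marrow, against 12.7%, 14.4% and 8.92% of all genes. Gbp2, a guanylate-binding protein that attacks pathogen vacuoles, measured 9.40, 22.1, 16.6 and 13.4 RPM in culture controls and 86.8, 90.3, 73.4 and 80.5 RPM with IL4. The groups were wide apart (2.44 ± 0.34, a 5.42-fold rise, adjusted p = 0.00043 by limma). In marrow, controls at 20.7, 38.2 and 14.9 RPM overlapped IL4 libraries at 38.0, 37.7 and 13.7 RPM (0.24 ± 0.57). The response difference of 2.2 ± 0.62 (adjusted p = 0.0199) was lost without marrow control 2 (1.84).

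Gbp3, a neighbour of Gbp2 on chromosome 3, fell in marrow from 30.3, 36.6 and 26.8 RPM to 16.3, 13.2 and 4.99 RPM (-1.52 ± 0.43, adjusted p = 0.0373). In culture it was not called, at 18.8, 10.2, 11.6 and 25.4 RPM in controls and 29.4, 44.5, 22.5 and 20.5 RPM with IL4 (0.82 ± 0.34, adjusted p = 0.0755). After centring, Gbp3 was called higher in culture (1.19, adjusted p = 0.0326 by limma) and not called in marrow (-1.41, adjusted p = 0.0507). Quantile normalization gave the same calls. Its marrow call was also lost in 4 of the 6 fits without a library. The responses differed by 2.34 ± 0.57 (adjusted p = 0.00913). Gbp7, the next gene along, was not called in either experiment, at -0.64 ± 0.25 and -0.49 ± 0.29. Related Gbp genes can share reads.

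The 3 immunity-related GTPases fell in culture and were not called in marrow. Irgm2 measured 49.4, 68.1, 34.9 and 44.8 RPM in culture controls and 14, 12.7, 19.5 and 15.8 RPM with IL4 (-1.59 ± 0.30, adjusted p = 0.0026). In marrow it overlapped, at 43.1, 52.6 and 38.7 RPM against 65.1, 62.3 and 33.7 RPM, and the responses differed by -1.80 ± 0.44 (adjusted p = 0.00933). Irgm1 fell from 63.5, 39.2, 44.8 and 35.8 RPM to 17.9, 24.2, 18 and 23.7 RPM in culture (-1.08 ± 0.23), while marrow controls at 67.0, 47.8 and 55.1 RPM lay just above IL4 libraries at 47, 47.2 and 34.9 RPM (-0.39 ± 0.23, adjusted p = 0.283). Igtp fell by 1.02 in culture, a call lost without culture control 1 (-0.82), and had 0.75 ± 0.30 in marrow, which was called without marrow IL4 library 3 (1.04). Igtp and Irgm2 share 7974 annotated bases on the same strand.

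Tap1, which carries peptides to MHC class I, measured 95.2, 92.0, 58.1 and 49.3 RPM in culture controls and 62.6, 39.4, 41.9 and 30 RPM with IL4. The groups overlapped, and the call (-0.74 ± 0.26, adjusted p = 0.0451 by limma) was lost in 6 of the 8 fits without a library. In marrow it stood at 187, 245 and 213 RPM in controls and 305, 308 and 190 RPM with IL4 (0.29 ± 0.21). It shares 212 bases with Psmb9 on the opposite strand.

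Levels without IL4 were compared between marrow controls and culture controls, on a scale that the recovered gene constants showed to be common to both tables. Of the 47 genes, 16 were higher in marrow controls, 4 were lower (Bst2, Lgals3bp, Trim25 and Parp14) and 27 were not called, with a median log2 difference of 0.63. Among all genes 30.7% were higher and 21.5% lower, with a median of 0.18, so the share of higher genes was near that background. Every marrow control lay above every culture control for 20 genes and below for 6, against 33.2% and 22.4% of all genes. After centring, 14 were higher and 5 lower, against 24.2% and 25.8% of all genes, with Ifi35 and Isg15 lost and Parp9 gained among the lower. Setting and experiment cannot be told apart in this contrast, and the neutrophil markers differed between the same groups by the amounts given above. Other marker lists differed too. All 5 monocyte, 4 of 5 progenitor and blast, 2 of 2 B cell and 2 of 2 erythroid markers were higher in marrow controls. Of the 11 macrophage markers 9 were lower, and of the 4 plasmacytoid dendritic cell markers 1 was higher and 2 lower. Of those 2, Bst2 is itself 1 of the 47 genes. The part of these cell types in the result was not tested.

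Cmpk2 had the largest difference of the 47 genes, at 3.88 ± 0.40 (adjusted p = 1.84e-06 by limma), and Rsad2 followed at 3.15 ± 0.45, both with every marrow control above every culture control. Oasl1, which restrains Irf7 translation, measured 16, 12.7 and 28.3 RPM in marrow controls and 5.88, 1.70, 3.32 and 0 RPM in culture controls, or 37 reads against 8, a ratio of 6.51 with an interval of 2.98 to 16.2. Irf7 was 2.59 ± 0.63 higher and Ifitm3 2.21 ± 0.48 higher, on the log2 scale. Zbp1, a sensor of left-handed nucleic acids, measured 31.9, 41.4 and 38.7 RPM against 16.5, 8.52, 3.32 and 7.46 RPM, without overlap (2.18 ± 0.44), and its responses to IL4 were called in neither experiment.

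Adar, at 182, 188 and 195 RPM against 122, 118, 103 and 92.6 RPM, was 0.83 ± 0.17 higher in marrow controls. Gbp7 was 1.16 ± 0.28 higher, at 62.2, 65.3 and 96.8 RPM against 44.7, 25.6, 28.2 and 37.3 RPM. Usp18 and Tap1 were 1.77 ± 0.37 and 1.62 ± 0.27 higher. The calls of Isg15 (1.23 ± 0.43) and Ifi35 (0.63 ± 0.25) were lost in 4 and 7 of the 14 fits without a library. In the other direction, Lgals3bp was 2.12 lower on the log2 scale (-2.12 ± 0.19, adjusted p = 4.8e-07), and Bst2, Trim25 and Parp14 had -0.82, -0.81 and -0.52. Oas1a, Oas2 and Oasl2, which declined with IL4 in culture, were not called in this contrast, at 0.03 ± 0.32, 0.03 ± 0.50 and 0.19 ± 0.46.

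**Figure D5:**
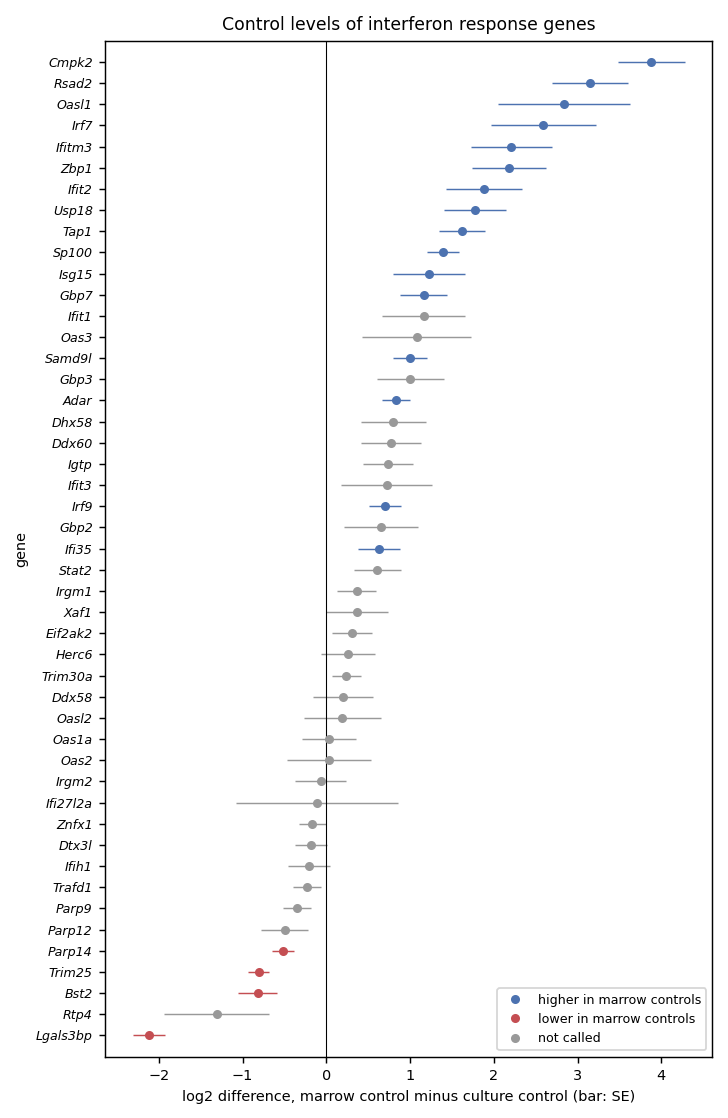
Log2 difference in level between marrow controls (3 libraries) and culture controls (4 libraries) for the 47 genes, with SE bars, sorted by size; blue genes were higher in marrow controls, red genes lower and grey genes not called by limma. Cmpk2 and Rsad2 head the order and Lgals3bp ends it.

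Lists of other genes of the pathway were counted in the same fits. Of 15 receptor, kinase and transcription factor genes, 8 fell and 1 rose in culture, against 32.6% and 7.96% of all genes. After centring 3 fell and 2 rose, against 12.7% and 14.4%. The shared receptor gene Ifnar1 fell by 0.87 and Ifnar2 by 0.63 (adjusted p = 0.000921 and 0.0112 by limma), the latter not called after centring (-0.27). Irf1, an early activator, had -1.42 ± 0.29 in culture and 0.18 ± 0.25 in marrow, with a difference of -1.60 ± 0.39. The kinase gene Jak2 rose in both, by 1.42 and 0.76.

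In marrow, 3 genes of that list fell and 2 rose, against 11.5% and 6.7% of all genes. Irf8, a myeloid factor also needed by plasmacytoid dendritic cells, the main interferon producers, fell from 222, 312 and 222 RPM to 41.6, 88.7 and 42.4 RPM (-2.19 ± 0.28, adjusted p = 0.00112), and by 0.82 in culture. Ifngr1, a receptor for interferon gamma, rose by 1.31 in marrow and Irf5 fell by 1.26. The 4 measured plasmacytoid dendritic cell markers of 11 listed (Tcf4, Irf8, Bst2 and Runx2) summed to 399 to 524 RPM in marrow controls and 150 to 236 RPM with IL4, and to 480 to 643 RPM and 234 to 271 RPM in culture. Bst2 is also 1 of the 47 interferon response genes, and the marrow sums include the Irf8 levels above. Of these 4 markers, 2 fell in marrow, and 3 fell and 1 rose in culture. The shares of all genes were 11.5% lower in marrow, and 32.6% lower and 7.96% higher in culture. Most of the plasmacytoid dendritic cell list was not measured, and the part of these cells in the result was not tested.

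Of 20 measured genes that sense nucleic acids upstream of interferon, 9 fell and 1 rose in culture, and 4 fell in marrow. The shares of all genes were 32.6% and 7.96% in culture and 11.5% lower in marrow. After centring 4 fell and 1 rose in culture, against 12.7% and 14.4% of all genes. The endosomal receptor genes Tlr7 and Tlr13 fell by 1.98 and 1.02 in culture, and Slc15a4, a lysosomal transporter needed for their signalling, fell by 0.85 in culture and by 1.15 in marrow. Tlr9 fell by 2.23 and its chaperone gene Unc93b1 by 0.74 in marrow. The responses of Myd88, Ticam2 and Tmem173 (the gene for the adaptor STING) differed between the experiments, at -1.34, 0.97 and -1.18. Of the 20 genes, 9 were lower and 4 higher in marrow controls than in culture controls, against 21.5% and 30.7% of all genes. Tlr8, Tlr13 and Tlr7 had the smallest p-values, at -3.03, -2.19 and -2.81, and Tlr3 differed by more, at -3.55.

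Of 17 negative regulators, 7 fell and 3 rose in culture and 2 fell in marrow, against 32.6%, 7.96% and 11.5% of all genes. After centring 4 fell and 3 rose in culture and 1 fell in marrow, against 12.7%, 14.4% and 8.92%. Socs1, an inhibitor of JAK kinases that IL4 also induces, measured 0, 5.11, 0 and 2.99 RPM in culture controls and 12.8, 21.6, 27.0 and 23.7 RPM with IL4 (3.56 ± 0.72, adjusted p = 0.00376 by limma). In marrow it measured 12.8, 3.19 and 2.98 RPM in controls and 14.5, 11.3 and 12.5 RPM with IL4, which overlapped (1.21 ± 0.55). The phosphatase gene Ptpn6, the receptor gene Sirpa and the exonuclease gene Trex1 fell by 1.56, 0.94 and 1.63 in culture. Rnaseh2c and Samhd1, which remove nucleic acids or their precursors, fell by 0.74 and 0.61 in marrow. The responses of Ptpn6 and Sirpa were lower in culture, by -1.66 and -0.84, and that of Samhd1 higher by 1.13. In control levels 9 of the 17 were higher in marrow and 1 lower, against 30.7% and 21.5% of all genes, with Samhd1 and Rnaseh2c at 0.93 and 1.43 and Sirpa at -2.30.

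A further 79 measured interferon-stimulated genes, of 112 listed, included 46 that fell and 1 that rose in culture (median -0.78), against 32.6% and 7.96% of all genes. After centring 29 fell and 4 rose, against 12.7% and 14.4%. Slfn8, Ms4a6c and Sp110 had the smallest p-values there, at -2.56, -3.71 and -1.99. In marrow 21 fell and 3 rose (median -0.22), against 11.5% and 6.7% of all genes. Pyhin1, Ifi203 and Ifi204, of the DNA-binding HIN200 family, had the smallest p-values, at -3.62, -2.70 and -1.91. The responses of 27 were lower in culture and of 2 higher, against 16.6% and 6.45% of all genes, among them Sp110 at -2.02, Oas1g at -2.87 and Pyhin1 at 3.88. In control levels 34 were higher in marrow and 7 lower, against 30.7% and 21.5%, and after centring 25 and 8, against 24.2% and 25.8%, with Gca at 4.32, Helz2 at 1.67 and Apobec1 at -2.73. By contrast, of 8 measured genes of the interferon gamma and MHC class II list, 7 rose with IL4 in culture and 4 in marrow, against 7.96% and 6.7% of all genes. Cd74, the MHC class II chaperone, rose by 3.92 ± 0.44 and 1.47 ± 0.29, with H2-Ab1 and H2-Eb1 at 4.04 and 3.65 in culture and H2-Aa and H2-Eb1 at 1.38 and 1.52 in marrow, while Irf1, on the same list, fell in culture.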

How the data were processed

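RNA of 14 libraries was purified with RNeasy Micro columns and made into TruSeq RNA v2 libraries, per the labels' protocols. The submitters' processing notes name bcl2fastq, TopHat2 2.0.13 and build mm10; how strand was used, genes filtered, reads counted and values normalized is not given in the sources used here. The 2 deposited tables hold log2 values of 9474 genes. The values showed that they are log2(reads + 0.5) plus a constant per gene, equal in both tables, and a constant per library; whole reads were recovered for 99.7% of genes (largest residual 0.000858), leaving 24 genes out of RPM. limma 3.58.1 (R 4.3.3) with a variance trend was fitted to the deposited values, two-sided, for each table (6 and 4 residual degrees of freedom) and for all 14 libraries (10) for response differences and control levels. Recovery, counts and promoter searches used Python 3.11.15. The fit was tested on simulated data. The genes and lists were chosen with earlier results of these data known. Genes named with every library were the transcription factors, up to 3 called genes of largest change per role and comparison, and called genes against the prevailing direction; of other lists, the 3 smallest p and set genes (Ifnar1, Ifnar2, Irf1, Irf8, Socs1), with a further set gene not reported here. Counting intervals are 95%, cover counting error only and take 3 reads as floor at 0. Alternatives were library centring, quantile normalization, no trend, robust fits, a mean of at least 10 reads, limma-voom, the replicate block and leaving out each library.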

Additional observations from a re-analysis of the deposited data

Results flagged for a closer look

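Of 94 groups of 4 culture libraries checked, 5 held a library set apart from the others, close to the 1 in 20 that chance gives. Ifi35 was highest in culture control 1, at a log2 value of 4.37 against 3.49 to 3.63 in the other controls (47 RPM against 24.9 to 27.3 RPM). Parp12 was highest in culture IL4 library 1, at 5.15 against 4.13 to 4.28. Isg15 was highest in culture IL4 library 3, at 1.60 against 0.29 to 0.48. In the same library Ifi27l2a was lowest, at -1.04 on 0 reads, against 3.67 to 4.29 (19 to 29.4 RPM). Ifit1 was highest in culture IL4 library 4, at 0.97, which is 1 read where the others had 0.

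The IL4 response differed between culture and marrow for 25 genes by the interaction term of limma. The culture response minus the marrow response, on the log2 scale, was -3.82 for Irf7 and -0.87 for Irf9 among the transcription factors, and -2.06 for Ddx58 and -1.82 for Ddx60 among the sensors. For the OAS genes it was -1.73 for Oas1a, -5.62 for Oas2, -3.77 for Oas3 and -2.78 for Oasl2. For the effectors it was -2.48 for Ifit1, -2.77 for Ifit3, -1.12 for Bst2, -2.77 for Ifitm3, -1.57 for Samd9l, -5.64 for Rtp4, -1.06 for Sp100 and -1.58 for Lgals3bp, and 2.85 for Rsad2. In the remaining roles it was -0.68 for Trim30a, -1.15 for Dtx3l, -0.74 for Parp14, -1.78 for Igtp and -1.80 for Irgm2, and positive for Usp18 at 1.86, Gbp2 at 2.2 and Gbp3 at 2.34. The calls of Irf9, Ifit1, Ifit3, Bst2, Trim30a and Parp14 were lost with quantile normalization, and those of Ifit1 and Trim30a with the replicate block.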

How the results depend on the processing

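No result changed direction past the threshold under any alternative run. Library centring gave 4 interferon response genes higher in culture and 5 lower in marrow, 5 called receptor and JAK-STAT genes and 5 called sensing genes in culture, and 1 called negative regulator in marrow. Quantile normalization gave 5 called sensing genes in culture and 19 other interferon-stimulated genes for the difference. Without a variance trend, 1 negative regulator was called in marrow. limma-voom gave 2 genes higher and 16 lower in marrow, and 8 sensing genes in marrow and 5 for the difference. Leaving out each library gave ranges of 3 to 10 lower and 0 to 1 higher in marrow, 1 to 2 negative regulators and 15 to 21 other interferon-stimulated genes in marrow, and 2 to 5 sensing genes and 3 to 7 negative regulators for the difference. In the same fits the counts in culture were 34 to 36 lower and 2 to 3 higher. Those of the difference were 17 to 24 lower and 3 to 4 higher. For the control levels they were 14 to 19 higher and 4 to 5 lower. The culture count of lower genes moved more with normalization, from 37 to 26 with centring and to 25 with quantile normalization. The lower share of all genes in culture was 32.6% before and 12.7% after centring. The cause of these moves was not tested. Depth limits the sparse genes: of the 47, 37 in culture and 44 in marrow had a mean of at least 10 reads.

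Replicate numbers are shared between IL4 and control groups in the labels, but same-numbered libraries did not deviate together: the correlations were 0.0194, -0.00723, 0.022 and -0.045 in culture and 0.0264, 0.059 and 0.0352 in marrow. In marrow, but not in culture, every library correlated best with its own number. With 3 libraries per group and correlations this small, that ordering cannot show a pairing, and the labels state none. With the replicate block, 37 genes fell and 2 rose in culture, 10 fell and 0 rose in marrow, and the difference was lower for 20 and higher for 4.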
